A study of Rattus norvegicus with 42 samples.

Results

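The genes by which cells take up, trap and make glucose were followed in liver, brain and lung of the rat: the facilitative transporter genes Slc2a1, Slc2a2, Slc2a3, Slc2a4 and Slc2a5, the hexokinase genes Hk1 and Hk2, and the glucose-production genes Pck1 and Fbp1. These 9 genes, of 14218 with a probe set of their own, were taken by gene symbol from the platform annotation. That gave 15 probe sets of 31048 tested. No measured value entered the step from symbol to probe set, but the 9 genes were chosen with earlier results of these data known. For each gene the probe set with the highest mean over all arrays stands for the gene. The 6 others are given where their call differed, and in most cases where only their direction differed. Affymetrix rat GeneChip arrays had been hybridised with RNA of pure liver, pure brain and pure lung, or with mixtures of their labelled RNA (cRNA). Each of the 14 groups (3 pure tissues and 11 mixtures) had 3 technical replicate arrays, 42 in all. In a mixture name the liver share stands before the brain share and the lung share last, so that 70/25/5 is 70% liver, 25% brain and 5% lung. All groups share 1 untreated rat of 9 to 12 weeks per the labels, whose strain and sex the sources used here do not give.

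The SLC2A proteins (GLUT) let glucose or fructose pass the cell membrane down its gradient, and hexokinases then add a phosphate that keeps the sugar inside. Brain lives mainly on glucose taken from blood, whereas liver both stores glucose and returns it to the blood, using a transporter that works in both directions and the enzymes of gluconeogenesis. Cells are known to choose among transporter and hexokinase isoforms by tissue, and the comparisons below show which isoform was read in which tissue.

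The promoters of 3 of the genes are shown first because these genes went opposite ways between tissues: Slc2a2 and Pck1 were high in liver and Slc2a1 in brain. Each sequence is the 250 bases before the gene's start in RefSeq (GRCr8), on the plus strand, and capitals mark matches to the motifs searched.
Slc2a2 (chr2:113540120-113540369): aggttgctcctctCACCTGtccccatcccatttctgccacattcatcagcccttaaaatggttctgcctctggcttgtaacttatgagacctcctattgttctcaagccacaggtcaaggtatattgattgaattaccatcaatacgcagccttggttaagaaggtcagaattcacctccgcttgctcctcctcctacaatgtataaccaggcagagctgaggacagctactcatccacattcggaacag
Pck1 (chr3:182348322-182348571): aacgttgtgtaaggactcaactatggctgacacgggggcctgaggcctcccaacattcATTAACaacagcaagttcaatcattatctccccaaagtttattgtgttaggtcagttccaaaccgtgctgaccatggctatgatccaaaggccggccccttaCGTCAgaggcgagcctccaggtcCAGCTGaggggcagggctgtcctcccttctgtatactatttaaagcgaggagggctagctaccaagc
Slc2a1 (chr5:138002272-138002521): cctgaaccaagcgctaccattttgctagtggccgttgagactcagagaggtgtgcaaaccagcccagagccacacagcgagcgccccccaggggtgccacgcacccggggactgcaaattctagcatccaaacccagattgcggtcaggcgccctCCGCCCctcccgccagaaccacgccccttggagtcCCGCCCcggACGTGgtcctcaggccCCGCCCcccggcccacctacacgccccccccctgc
The motifs were searched on both strands: the letters TGACG of the cAMP response element, the letters GTTAAT of an HNF1 site, the HNF4 type AAAGTCC, the forkhead type TGTTTAC, the C/EBP type TTGCAAT, the core promoter box TATAAA, the GC box written GGGCGG, the hypoxia-type core ACGTG, and the E box written CANNTG. The Pck1 window held TGACG 90 bases and GTTAAT 192 bases before the start, both on the minus strand, and an E box 67 bases before it. Of 33469 rat promoter windows of the same length, 18.2% held TGACG, 6.45% GTTAAT and 65.5% CANNTG. The Slc2a1 window held 3 GC boxes on the minus strand, 95, 60 and 35 bases before the start, and 1 ACGTG match 51 bases before it. GGGCGG was held at least once by 30.5% of all windows, and ACGTG by 16.6%. The Slc2a2 window held 1 E box and none of the other letters. Each motif was counted on its own, so overlapping matches of different motifs count for both. The HNF4, forkhead, C/EBP and core promoter letters were in none of the 3 windows, and in 3.99%, 3.21%, 1.88% and 12.9% of all windows. RefSeq windows were found for 7 of the 9 genes, in 8 windows since Hk1 has 2, and a match describes the letters and shows no binding.

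Levels below are log2 RMA values, a log2 intensity per probe set, and differences of levels are log2 too. A pair of pure tissues was called different at a limma adjusted p under 0.05 and at least 2-fold, and a gene was enriched when called higher in 1 tissue than in both others. Levels of different probe sets are not compared with each other, since each probe set has its own response. Of the 9 genes, 7 were enriched in 1 tissue, 4 of them in liver (Slc2a2, Slc2a5, Pck1 and Fbp1) and 3 in brain (Slc2a1, Slc2a3 and Hk1). Over all probe sets 27.7% were enriched in some tissue, 7.28% in liver, 11.5% in brain and 8.94% in lung. Between liver and brain 7 of the 9 genes were called, 4 higher and 3 lower in liver, where 33.5% of all probe sets were called (14.6% higher and 18.9% lower). Between liver and lung 6 were called, 4 higher and 2 lower in liver, against 28.0% of all probe sets (10.8% higher and 17.2% lower). Between brain and lung 4 were called, 3 higher and 1 lower in brain, against 31.0% (15.0% higher and 15.9% lower). The genes are counted by 1 probe set each, whereas the shares count every probe set. Of the 15 probe sets of the 9 genes, 11 were called between liver and brain, 6 between liver and lung and 8 between brain and lung. By probe set 4 were enriched in liver and 7 in brain. The median absolute difference over the 9 genes was 3.98, 2.21 and 0.94 in these comparisons, and 0.64, 0.57 and 0.51 over all probe sets. The replicates are technical, so p-values measure the spread between arrays and not between animals, and in whole tissue fewer cells of a type and less RNA per cell cannot be told apart.

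**Figure D1:**
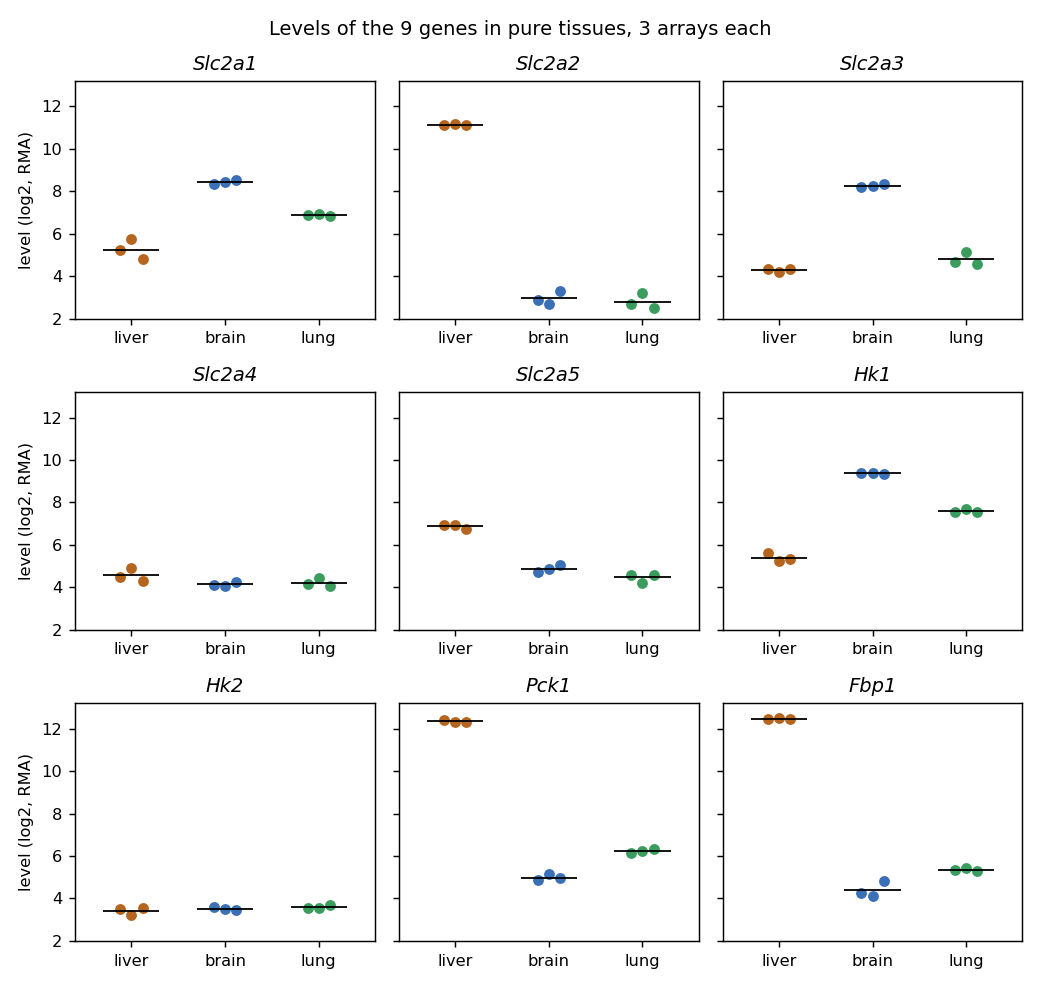
Level (log2, RMA) of each of the 9 genes in pure liver, brain and lung. Points are the 3 technical replicate arrays and lines their means. Slc2a2, Pck1 and Fbp1 stand above 11 in liver, Slc2a1, Slc2a3 and Hk1 are highest in brain, and Slc2a4 and Hk2 stay under 5 in every tissue.

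The tissues were checked by cell type markers. All 6 hepatocyte markers were enriched in liver, and all 6 neuron and all 3 measured oligodendrocyte markers in brain. All 5 lung epithelial and all 5 measured endothelial markers were enriched in lung. Of 5 astrocyte markers 4 were enriched in brain, and of 5 microglial markers 1 in brain and 2 in lung. Brain also read Alb, the albumin gene, which had a level of 14.31 in liver, 12.21 in brain and 5.07 in lung, and the summed hepatocyte markers (linear scale) were 52620 to 55360 in liver arrays, 4966 to 5074 in brain arrays and 372 to 406 in lung arrays. Of the 6, Alb, Apoa1 and Fgb were higher in brain than in lung, and Serpina1, Cyp2e1 and Tat lower. Without Alb, a sum chosen after the first was seen, the other 5 summed to 33510 to 34600 in liver, 253 to 267 in brain and 341 to 365 in lung. Lung read heart muscle markers, 4 of 5 of them enriched there, with sums of 123 to 155 in liver, 169 to 175 in brain and 1604 to 1632 in lung. Their part in the results on glucose genes was not tested, and the levels they bear on are given beside those results.

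Among the transporters, Slc2a2 was enriched in liver. Slc2a2 encodes GLUT2, the low-affinity transporter of hepatocytes, pancreatic beta cells, kidney and gut. Its level was 11.13, 11.17 and 11.15 in liver arrays, 2.89, 2.67 and 3.32 in brain arrays, and 2.68, 3.23 and 2.51 in lung arrays. Liver stood far above both other tissues, whose arrays overlapped each other and lay near the bacterial dap controls, which carry no rat signal and read 2.43 to 3.09. Liver minus brain was 8.19 ± 0.11 (SE, limma adjusted p = 3.71e-36) and liver minus lung 8.34 ± 0.11 (3.60e-36). The brain and lung means lay within the range of those controls, so no level above background was read there and no fold is given. Brain minus lung was 0.15, with a 95% interval of -0.07 to 0.38 (adjusted p = 0.225).

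Slc2a1 and Slc2a3 were the transporters enriched in brain. Slc2a1 encodes GLUT1, the transporter of the blood-brain barrier and glia. It read 5.22, 5.74 and 4.81 in liver, 8.36, 8.44 and 8.53 in brain, and 6.91, 6.95 and 6.86 in lung. The tissues did not overlap, and liver arrays were the most scattered (SD 0.47). Liver minus brain was -3.19 ± 0.11 (SE, limma adjusted p = 9.42e-24), liver minus lung -1.65 ± 0.11 (2.35e-15), and brain minus lung 1.54 ± 0.11 (1.34e-14). Endothelial markers were highest in lung. On the linear scale they summed to 1381 to 1508 in liver, 960 to 977 in brain and 10470 to 10920 in lung. Without Kdr the other 4 summed to 411 to 422 in liver, 812 to 849 in brain and 7320 to 7476 in lung. That sum was chosen after the first was seen, and the part of endothelial markers in Slc2a1 was not tested. Astrocyte markers summed highest in brain, at 189 to 204 in liver, 13830 to 14080 in brain and 924 to 1070 in lung. Of the 5, 4 were enriched in brain. The other, Slc1a2, had log2 levels of 6.67 in liver, 6.05 in brain and 3.66 in lung. Red blood cell markers were highest in lung, at 5073 to 5169 in liver, 2676 to 2754 in brain and 12690 to 12870 in lung. The part of astrocyte and red blood cell markers in Slc2a1 was not tested.

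Slc2a3 encodes GLUT3, the high-affinity transporter of neurons. Its brighter probe set read 4.32, 4.19 and 4.34 in liver, 8.19, 8.24 and 8.37 in brain, and 4.68, 5.14 and 4.57 in lung. Brain was 15.8-fold above liver (liver minus brain -3.98 ± 0.09, SE, limma adjusted p = 8.92e-29) and 11.1-fold above lung (brain minus lung 3.47 ± 0.09, adjusted p = 7.57e-27). The second probe set also called brain above both, by 2.04 over liver and 2.44 over lung. The probe sets differed in the order of the dim tissues: liver minus lung was -0.51 by the first and 0.40 by the second, both under 2-fold.

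Slc2a4 and Slc2a5 serve other tasks. Slc2a4 encodes GLUT4, the transporter that insulin brings to the surface of muscle and fat cells. It read 4.48, 4.92 and 4.28 in liver, 4.10, 4.08 and 4.26 in brain, and 4.17, 4.42 and 4.09 in lung. Lung arrays overlapped those of both other tissues, and the lowest liver array lay just above the highest brain array. Liver minus brain was 0.41, with a 95% interval of 0.12 to 0.71, and -0.45 once arrays were fitted to the hybridisation controls, and brain minus lung was -0.07 (-0.37 to 0.22). The other probe set stayed between 3.19 and 3.78 in every pure array. Liver minus lung was 0.34 by the first probe set and -0.12 by the second, neither called. Skeletal muscle markers summed to 571 to 593 in liver, 218 to 244 in brain and 984 to 1017 in lung, and their part was not tested.

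Slc2a5 encodes GLUT5, a fructose transporter known from gut, kidney and, in brain, microglia. It was enriched in liver, at 6.95, 6.92 and 6.74, against 4.73, 4.89 and 5.03 in brain and 4.58, 4.22 and 4.59 in lung. Liver arrays lay above all others, by 1.99 ± 0.11 over brain (SE, limma adjusted p = 8.93e-18) and by 2.40 ± 0.11 over lung (4.75e-20). Brain minus lung was 0.42 ± 0.11 (adjusted p = 0.00105), under 2-fold. Microglial markers summed to 548 to 582 in liver, 533 to 560 in brain and 1105 to 1157 in lung. Of the 5, P2ry12 was enriched in brain and Csf1r and Tmem119 in lung. Without Csf1r the other 4 summed to 304 to 346 in liver, 381 to 398 in brain and 584 to 606 in lung. That sum was chosen after the first was seen, and the part of microglial markers was not tested.

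Of the hexokinases, Hk1 was enriched in brain and Hk2 was called in no pair of pure tissues. Hk1 encodes the hexokinase of brain and red blood cells, which binds to mitochondria. Its brightest probe set read 5.60, 5.22 and 5.35 in liver, 9.40, 9.39 and 9.32 in brain, and 7.57, 7.68 and 7.54 in lung. No array of 1 tissue overlapped another tissue. Liver minus brain was -3.98 ± 0.07 (SE, limma adjusted p = 1.69e-33), liver minus lung -2.21 ± 0.07 (1.39e-25) and brain minus lung 1.77 ± 0.07 (7.57e-23).

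Hk1 has 4 further probe sets, of which 3 belong to the array's hexokinase control set for the 5′, middle and 3′ parts of the transcript. All 3 control probe sets were enriched in brain, by 1.89 (5′), 1.03 (middle) and 1.67 (3′) over the next tissue. They did not share the order of liver and lung: liver minus lung was 0.15 (5′), 0.47 (middle) and -0.47 (3′), all under 2-fold, where the brightest probe set gave -2.21. The remaining one, the dimmest, read 4.44, 4.51 and 4.57 in liver, 3.93, 3.93 and 3.61 in brain, and 3.93, 3.90 and 4.12 in lung. It was thus highest in liver, by 0.69 over brain (adjusted p = 1.40e-08, 1.61-fold, not called), the opposite of the other 4. Within the control set, the 3′ minus 5′ difference was 0.54 to 0.80 in liver arrays, 0.76 to 0.97 in brain arrays and 1.09 to 1.53 in lung arrays, without overlap of lung with the others. The part of that difference in the order of liver and lung was not tested.

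**Figure D2:**
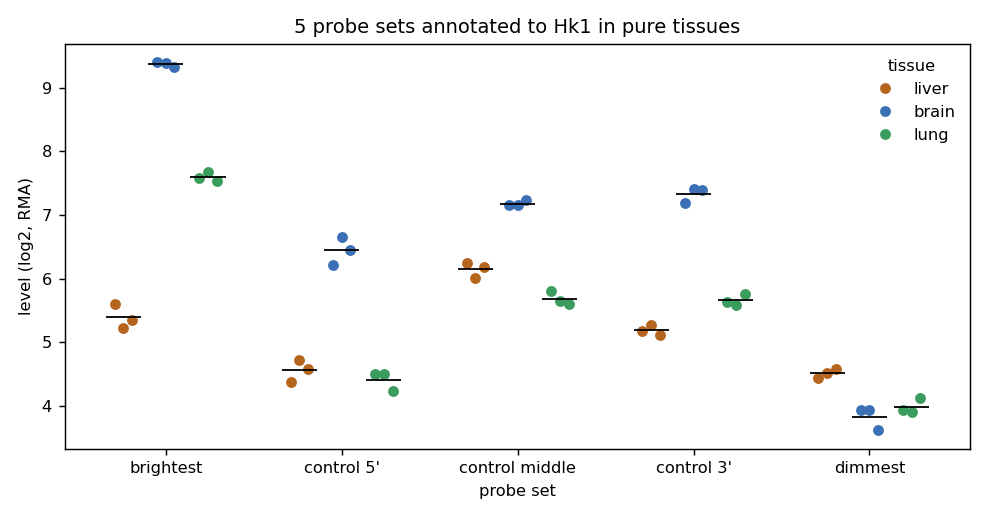
Level (log2, RMA) of the 5 probe sets annotated to Hk1 in liver, brain and lung, with 3 arrays per tissue as points and their means as lines. Brain is highest for the brightest probe set (left) and for the 3 control probe sets, whereas the dimmest (right) is highest in liver, at 4.44 to 4.57.

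Hk2 encodes the hexokinase of muscle, fat and many tumours, induced by insulin. It read 3.50, 3.23 and 3.54 in liver, 3.58, 3.48 and 3.43 in brain, and 3.57, 3.56 and 3.69 in lung. Brain arrays overlapped those of both other tissues, and the highest liver array lay just below the lowest lung array. Of the 3 differences the largest, liver minus lung at -0.18 with a 95% interval of -0.34 to -0.02 (limma adjusted p = 0.0382), stayed under 2-fold as deposited, was 0.07 after median centring and -1.12 with arrays fitted to the hybridisation controls, and the low level limits what a difference could show.

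The glucose-production genes Pck1 and Fbp1 were enriched in liver. Pck1 encodes the cytosolic phosphoenolpyruvate carboxykinase, which commits oxaloacetate to gluconeogenesis in liver and kidney and feeds glycerol synthesis in fat. It read 12.42, 12.34 and 12.31 in liver, 4.85, 5.15 and 4.94 in brain, and 6.16, 6.22 and 6.32 in lung. The 3 tissues were apart, with lung above brain: liver minus brain was 7.38 ± 0.06 (SE, limma adjusted p = 8.21e-43), liver minus lung 6.12 ± 0.06 (2.35e-40) and brain minus lung -1.25 ± 0.06 (5.76e-20).

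Fbp1 encodes the fructose-1,6-bisphosphatase that runs the reverse of the phosphofructokinase step. Its level was 12.44, 12.51 and 12.45 in liver, 4.26, 4.13 and 4.85 in brain, and 5.33, 5.45 and 5.28 in lung. Liver minus brain was 8.05 ± 0.09 (SE, limma adjusted p = 1.11e-38) and liver minus lung 7.11 ± 0.09 (6.52e-37). Brain minus lung was -0.94 ± 0.09 (1.47e-11), just under the 2-fold limit, and it passed at -1.16 without brain replicate 3, the brain array at 4.85. Summed hepatocyte markers were higher in brain than in lung with Alb and lower without it, as given above, and their part in the order of brain and lung for Pck1 and Fbp1 was not tested. Fat markers, which could bear on Pck1, summed to 824 to 893 in liver, 53.5 to 63.8 in brain and 328 to 339 in lung. Cidec carried most of the liver sum, and without it, again after the first sum was seen, the other 4 summed to 82.9 to 90.0 in liver, 38.8 to 42.5 in brain and 284 to 299 in lung. Their part was not tested.

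Other genes of glucose entry and glucose production were read from a list of 29, of which 24 were measured. The other 5 were not analysed here. Of the 24, 8 (33.3%) were enriched in liver, 2 (8.33%) in brain and 2 (8.33%) in lung, where 7.28%, 11.5% and 8.94% of all probe sets were, so the brain and lung shares were near those of all probe sets. Between liver and brain 8 were called higher and 7 lower in liver, between liver and lung 8 higher and 5 lower in liver, and between brain and lung 3 higher and 6 lower in brain. Over all probe sets these shares were 14.6% higher and 18.9% lower, 10.8% and 17.2%, and 15.0% and 15.9%. The liver genes were led by Gcgr, the glucagon receptor gene, with levels of 8.83 (liver), 4.31 (brain) and 4.08 (lung), 23.1-fold above the next tissue. Gckr was 11.4-fold higher in liver than in the next tissue, and Mlxipl, the glucose-sensing transcription factor ChREBP, 10.1-fold. Slc37a4, which carries glucose-6-phosphate into the endoplasmic reticulum, was 5.71-fold higher, Pc (pyruvate carboxylase) 5.36-fold, and Insr, Slc2a9 and Pfkfb1 3.08-fold, 3.03-fold and 3.00-fold. Brain was led by Slc2a13, the proton myo-inositol transporter gene, at 9.96 in brain against 5.44 in liver and 6.71 in lung, a 9.47-fold difference from the next tissue. Ppargc1a, a coactivator of gluconeogenic and mitochondrial genes, was 3.63-fold higher in brain, at 8.03, against 5.62 in liver and 6.17 in lung. In lung, Fbp2, the bisphosphatase of muscle, was 2.90-fold above the next tissue and Pfkfb4 2.30-fold. Fbp2 read 3.89 in liver, 3.37 in brain and 5.42 in lung, beside the heart muscle markers that lung also read, and their part was not tested.

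Profiles over all 14 groups, each centred on its own mean, were set against those of all 14218 genes. Slc2a2 was closest to Cyp2c22, Slco1b2 and Cpa1, with root mean square differences of 0.066, 0.073 and 0.077 (log2), and Fbp1 to Rgn (0.062), Otc (0.066) and Serpina3n (0.107). Pck1 had no profile as close, since its nearest, Azgp1, Inhca and Pon1, differed by 0.139, 0.143 and 0.149. Slc2a1 was closest to Usp11, Ptpn4 and Pip5k1c (0.047, 0.054 and 0.058), Slc2a3 to Wnk2, Plcl1 and Lgi4 (0.051, 0.068 and 0.073), and Hk1 to Prune2, C7h12orf75 and Cstpp1 (0.050, 0.059 and 0.062). Slc2a5 was nearest to Slc45a3 (0.090), Lyplal1 (0.106) and Acad8 (0.119). Slc2a4 and Hk2 differed by less than 2-fold between pure tissues, though Slc2a4 read lower in the mixtures. Their nearest genes also differed by less than 2-fold between pure tissues. These were Taf6l, Slc26a6 and Wfikkn1 for Slc2a4 (0.080 to 0.084), and Ube2n, Scaf4 and Nxf1 for Hk2 (0.041 to 0.050).

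The mixtures asked whether these tissue choices could be followed when the tissues were combined. When brain took the place of liver at 5% lung (25/70/5 minus 70/25/5), 7 of the 9 genes were called by limma at an adjusted p under 0.05 with no fold limit, where 53.0% of all probe sets were (30.9% higher and 22.1% lower). Slc2a1, Slc2a3 and Hk1 were higher in 25/70/5, and Slc2a2, Slc2a5, Pck1 and Fbp1 lower. Slc2a2 read 8.63, 8.72 and 8.67 in 25/70/5, against 10.53, 10.54 and 10.56 in 70/25/5, a difference of -1.87 ± 0.11 (SE, adjusted p = 2.98e-16) where the pure levels and shares predict -1.47. Slc2a3 read 7.95, 8.01 and 7.89 in 25/70/5, against 7.06, 7.26 and 6.93 in 70/25/5, a difference of 0.86 ± 0.09 (adjusted p = 1.42e-09) where 1.27 was predicted. For both genes the arrays of the 2 mixtures did not overlap. Slc2a1 and Hk1 also differed by less than predicted, at 0.68 and 0.81 against 1.11 and 1.24. The dimmest Hk1 probe set went the other way, at -0.20 (limma adjusted p = 0.0567, not called), where -0.31 was predicted. The second Slc2a4 probe set was at 0.04 where the first gave -0.06, neither called. Pck1 differed by -1.34, against a predicted -1.46, and Fbp1 by -1.61, against -1.47.

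When lung took the place of liver at 25% brain (5/25/70 minus 70/25/5), 6 of the 9 were called, where 61.3% of all probe sets were (30.6% higher and 30.7% lower). Slc2a2 fell, at -4.19 ± 0.11 (SE, limma adjusted p = 9.83e-27), and so did Fbp1 (-3.72 ± 0.09, 5.57e-28), Pck1 (-3.10 ± 0.06, 6.77e-31) and Slc2a5 (-1.28 ± 0.11, 3.48e-12). Slc2a3 had a difference of -0.36 ± 0.09 (adjusted p = 0.00132) where 0.08 was predicted, and 0.11 once arrays were fitted to the hybridisation controls. Hk2 rose by 0.23 ± 0.08 (adjusted p = 0.0127), a call lost without 5/25/70 replicate 1 (0.18) and without 70/25/5 replicate 1 (0.21). Slc2a1, at 7.53, 7.50 and 7.45 in 5/25/70 and 7.51, 7.48 and 7.45 in 70/25/5, differed by 0.02 where 0.53 was predicted from its higher level in lung than in liver. Hk1 differed by 0.13 where 0.57 was predicted (adjusted p = 0.0932). Its 4 other probe sets were lower in 5/25/70, and 3 of them were called. These were the 5′ control at -0.44 (adjusted p = 0.00157, predicted -0.06), the middle control at -0.26 (0.0116, predicted -0.23) and the dimmest at -0.30 (0.00401, predicted -0.36). The 3′ control was at -0.17, not called, where 0.18 was predicted. The second Slc2a4 probe set was called higher, at 0.30 (0.00797), where the first gave 0.10 (0.575).

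When brain took the place of lung at 70% liver (70/25/5 minus 70/5/25), the 3 brain genes were called by the probe sets that stand for the genes, where 46.8% of all probe sets were called (21.4% higher and 25.4% lower). Slc2a3 read 7.06, 7.26 and 6.93 in 70/25/5, against 5.60, 5.64 and 5.37 in 70/5/25. The difference of 1.55 ± 0.09 (SE, limma adjusted p = 6.18e-16) exceeded the predicted 1.35. Hk1 was higher by 1.08 ± 0.07 (6.57e-16, predicted 0.88) and Slc2a1 by 0.95 ± 0.11 (6.56e-09, predicted 0.69). The dimmest Hk1 probe set went the other way, at -0.17 (limma adjusted p = 0.107, not called), where -0.02 was predicted. Slc2a2, Pck1 and Fbp1, with the liver share held, differed by -0.05, -0.02 and -0.03. Slc2a5 differed by -0.24 (adjusted p = 0.0792), and by -0.32 with a call without 70/25/5 replicate 3. The second Slc2a4 probe set was called lower, at -0.26 (adjusted p = 0.0224), where the first gave -0.24 (0.167). Between 5% and 1% lung (60/35/5 minus 65/34/1), 0 of the 9 were called by limma, and 0 had an unadjusted p under 0.05, where 2.49% of all probe sets were called (2.21% higher and 0.283% lower). The liver share of that pair was 60% against 65%, and the brain share 35% against 34%. The largest difference among the 9 was that of Fbp1, at -0.134 where -0.114 was predicted. Slc2a2 differed by -0.133 where -0.115 was predicted.

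**Figure D3:**
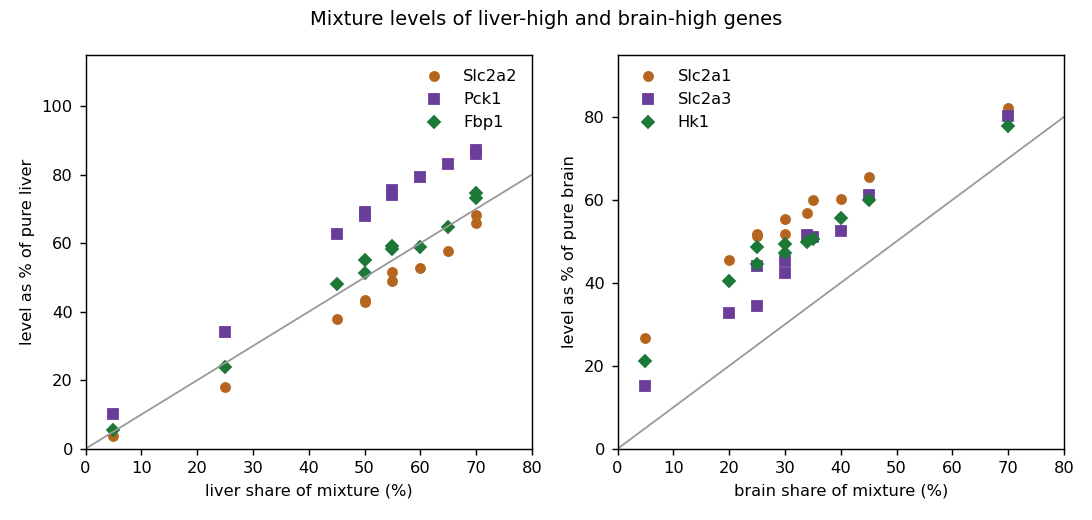
Level in each of the 11 mixtures as a percentage of the level in pure tissue (linear scale), against the liver share for Slc2a2, Pck1 and Fbp1 and against the brain share for Slc2a1, Slc2a3 and Hk1. The grey line marks a level equal to the share, that is, no signal from the other tissues. Pck1 lies above the line at every share and Slc2a2 below it, and the 3 brain genes lie above it throughout.

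Over the mixtures the level was followed as a percentage of that in the tissue where it was highest. At 5% liver (5/25/70) Slc2a2 read 3.60% of its pure liver level, Fbp1 5.54% and Pck1 10.1%. At 45% liver (45/45/10) they read 37.8%, 48.1% and 62.7%, and at 70% liver (70/5/25) 68.3%, 74.5% and 87.3%. The 3 genes of liver thus gave different curves from the same mixtures. At 5% brain (70/5/25) Hk1 read 21.1% of its pure brain level, Slc2a1 26.6% and Slc2a3 15.1%, and at 70% brain (25/70/5) 77.8%, 82.2% and 80.3%.

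Each observed level was then compared with the pure levels summed by share, which also counts the signal of the other tissues. A mean departure over the 11 mixtures was called at a limma adjusted p under 0.05 and 1.5-fold, and over all probe sets its median was -0.22. Slc2a5 was the 1 of 9 genes called, where 5.17% of all probe sets were called (0.325% above and 4.84% below), with a mean departure of -0.71 ± 0.07 (SE, adjusted p = 3.28e-11). It lay below the sum in 11 of 11 mixtures, by 0.40 in 5/25/70 (4.44 observed and 4.84 predicted) and by 0.96 in 50/40/10 (5.22 and 6.18). With arrays fitted to the hybridisation controls its departure was -0.33, and it was -0.40 against a share-weighted mean of log2 levels, neither called. Such a departure was not particular to Slc2a5. Of the 24 measured genes of the wider list, 5 (20.8%) were called below the sum and 0 above. They were the liver-enriched Pfkfb1 (-0.97), Mlxipl (-0.78), Gcgr (-0.78), Insr (-0.70) and Slc2a9 (-0.64).

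The other departures were smaller than 1.5-fold, though several had small adjusted p by the same limma fit. Pck1 lay above the sum in 11 of 11 mixtures, by 0.43 ± 0.04 on average (SE, adjusted p = 1.30e-10). The brain genes Slc2a1 (0.34 ± 0.06, 1.16e-05), Slc2a3 (0.33 ± 0.06, 1.07e-05) and Hk1 (0.30 ± 0.04, 3.16e-08) lay above it in 11 of 11 mixtures as well. Other probe sets were nearer the sum: the second of Slc2a3 was at 0.14 (adjusted p = 0.12, above in 9 of 11), and the Hk1 5′, middle and 3′ controls at 0.04, -0.03 and 0.24. The dimmest Hk1 probe set was at -0.20 (0.000149). Slc2a2 lay below it in 11 of 11, by -0.23 ± 0.08 (adjusted p = 0.0108), close to the median of all probe sets. Fbp1 was at 0.04 ± 0.06 (-0.23 after median centring), Hk2 at -0.13 ± 0.04 and Slc2a4 at -0.49 ± 0.07. By its first probe set Slc2a4 read lower in the mixtures than in any pure tissue, between 3.68 and 4.06 as mixture means, against 4.56 in liver, 4.15 in brain and 4.22 in lung. Its second probe set did not, since 5/25/70 (3.49), 70/5/25 (3.46) and 65/34/1 (3.52) lay above pure brain (3.36).

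**Figure D4:**
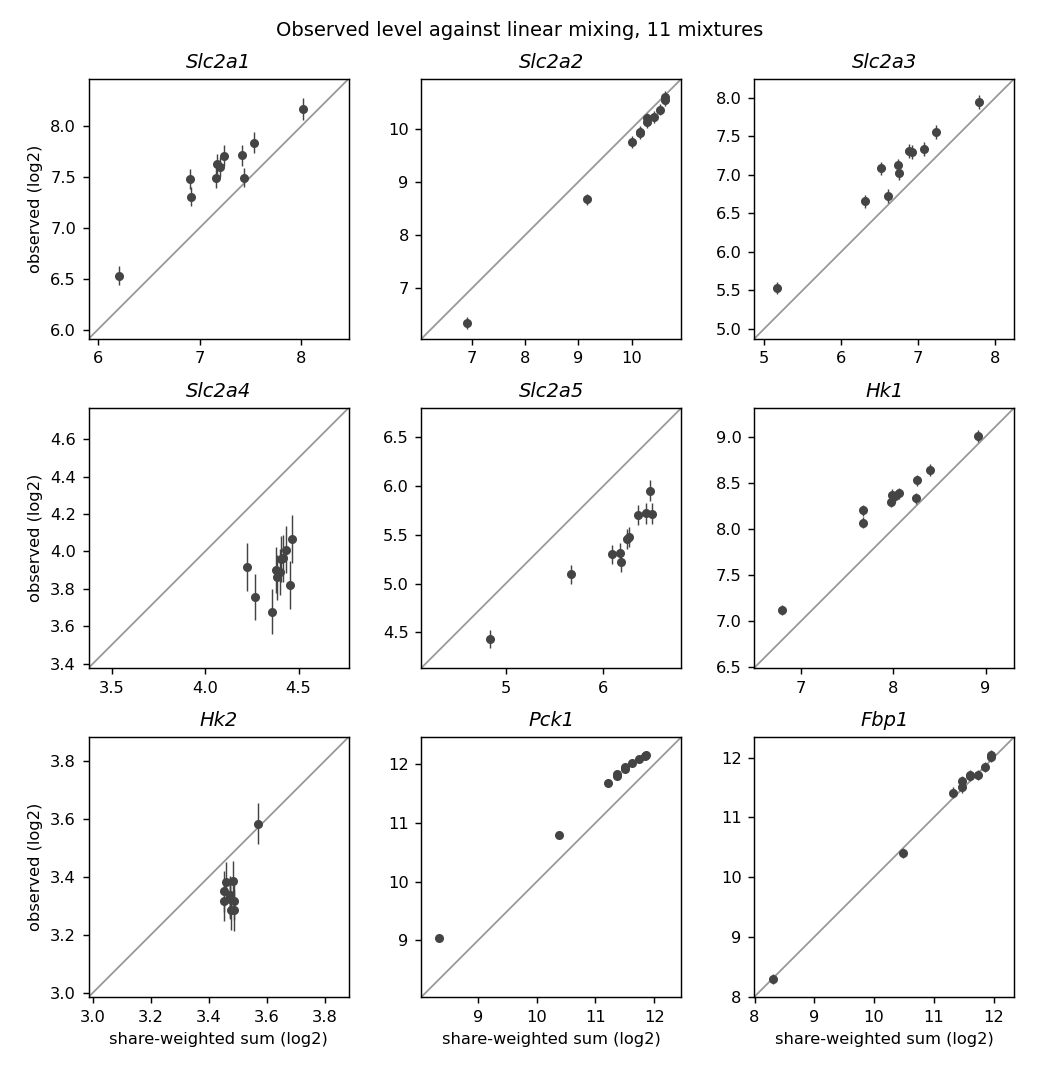
Observed level of each gene in the 11 mixtures against its pure levels summed by share (both log2). Points are means of 3 arrays, bars the SE of the departure, and the grey line marks equality. Slc2a5 and Slc2a4 lie below the line, Pck1 and the 3 brain genes above it, and Fbp1 on either side of it within 0.13.

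The last comparison used the mixtures alone. A regression of the 11 mixture means (linear scale) on the labelled shares gave an estimated level in each tissue, and levels were called unequal at a limma adjusted p under 0.05. All 9 genes were called, where 77.4% of all probe sets were, and Slc2a4 passed at an adjusted p of 0.0456. Its second probe set was not called (adjusted p = 0.371) and had its highest estimate in lung. The tissue with the highest estimate was the one with the highest pure level for 9 of 9 genes by these probe sets, and for 87.9% of all probe sets. For Slc2a4 and Hk2 the highest pure tissue rests on differences that were not called. For Slc2a2 the estimates were 2171 ± 23.7 in liver, -251.5 ± 35.3 in brain and 53.1 ± 35.9 in lung (SE), where the pure tissues read 2270, 7.78 and 7.002. A level cannot be negative, and the fit sets no lower limit. Pck1 was estimated at 6631 ± 145.2 in liver, against 5252 measured there, and Fbp1 at 5962 ± 104.5, against 5663.

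By these probe sets the mixtures gave, for the brain genes, brain levels close to the pure ones and liver levels above them. Hk1 was estimated at 703.9 ± 20.0 in brain, against 662.7 measured, and at 130.9 ± 13.4 in liver, against 42.01. Slc2a3 had 345.0 ± 11.2 in brain, against 307.8 measured, and 55.0 ± 7.50 in liver, against 19.5. Slc2a1 showed the same, at 384.8 ± 13.7 in brain, against 348.2, and at 96.4 ± 9.21 in liver, against 38.2. Their ratios of estimated to measured level were 1.06 to 1.12 in brain and 2.52 to 3.12 in liver. Other probe sets gave lower ratios in liver, 1.28 for the second of Slc2a3, 1.15, 1.09 and 1.55 for the 5′, middle and 3′ controls of Hk1, and 0.861 for its dimmest. Slc2a5 went below in liver, at 70.6 ± 3.61 against 116.9 measured. Hk2 had its highest estimate in lung, at 12.5 ± 0.61, against 9.66 ± 0.41 in liver and 9.95 ± 0.60 in brain.

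**Figure D5:**
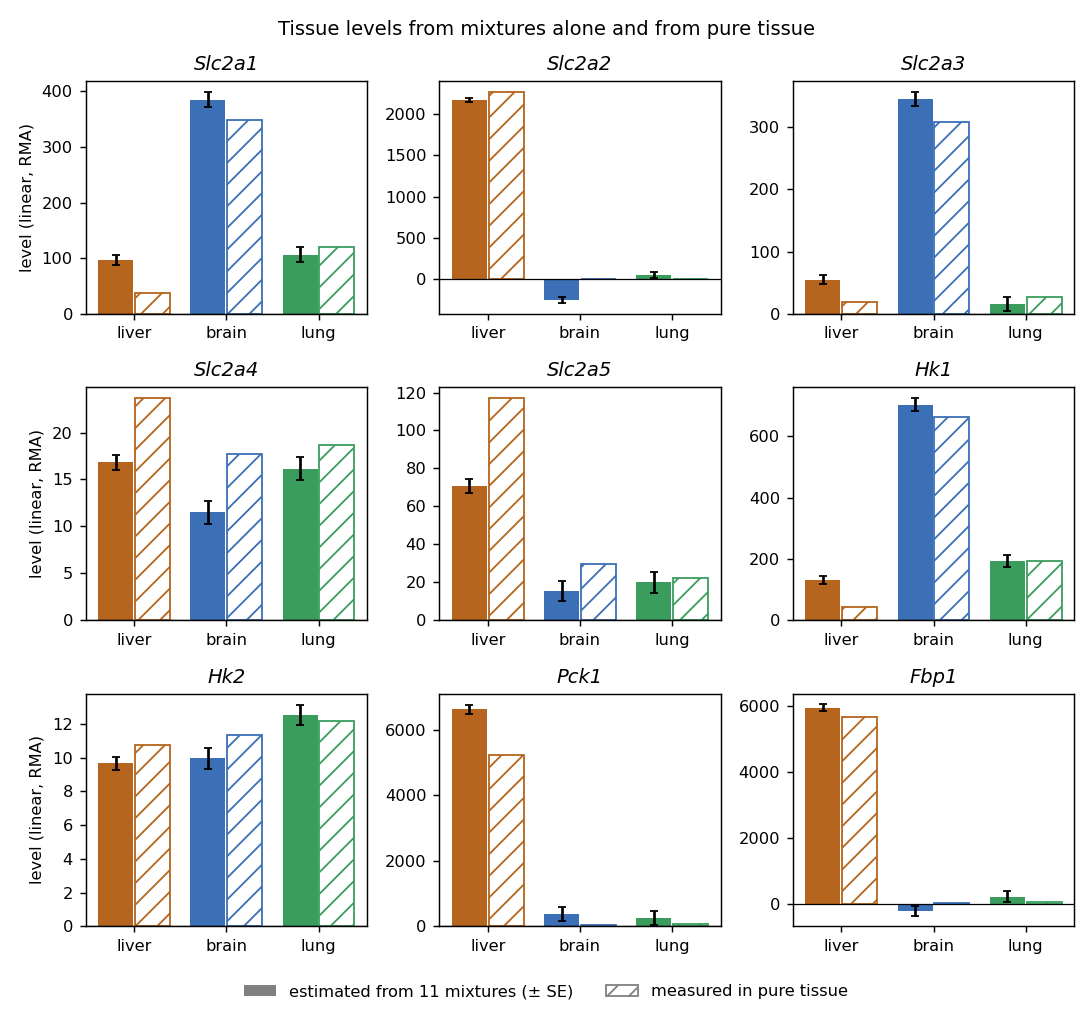
Level of each gene per tissue (linear RMA scale), estimated from the 11 mixtures alone (filled bars, with SE) and measured in pure tissue (hatched bars, mean of log2 levels of 3 arrays). Estimates and measurements share the highest tissue for all 9 genes, though Slc2a4 and Hk2 were called in no pair of pure tissues. The brain estimate of Slc2a2 is negative.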

How the data were processed

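Liver, brain and lung of 1 rat, pure or mixed as labelled cRNA, were measured on 42 arrays in 14 groups of 3 technical replicates. Values were deposited as log2 intensity per probe set after RMA normalization by the authors, per the series' design text and the submitters' processing notes. No version of RMA is named in the sources used here. RMA forces similar distributions on all arrays, which may scale unlike tissues unevenly. Of 31099 probe sets, 51 control probe sets without an annotated gene were left out. Array medians were 5.48 to 5.83, and the number of arrays limits the precision. Of the probe sets tested, 20832 have 1 gene symbol in the platform annotation, 436 several and 9780 are not listed, and the GRCr8 gene table changed 0 symbols.

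Members, lists and alternatives were chosen with earlier results of these data known. The text names all 9 genes, up to 10 enriched genes of the wider list by margin, and the 3 closest profiles of each gene. Fbp2 and Pfkfb4, the other two enriched genes of that list, were named after their values were seen. A single linear model with 1 mean for every group was fitted to all arrays by limma 3.58.1 under R 4.3.3 (residual df 28, prior df 4.56), with Benjamini-Hochberg adjustment over all probe sets. Departures took their error by the delta method. Alternatives covered scaling, background (percentile 5, floor 4 on the linear scale), a filter at the median of 5.73, probe set choice, variance model, arrays in the fit, the scale of mixing and leaving out each array. The steps were run on simulated data with planted differences, and the outcome is not reported here. Those data had exact linear mixing elsewhere and independent normal noise. They cannot show how the steps handle mixtures that depart from linear mixing as the real ones did. Figures used matplotlib 3.10.9 under Python 3.11.15.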

Additional observations from a re-analysis of the deposited data

How the results depend on the processing

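The counts of genes called between pure tissues, and of enriched genes (7), stayed within 1.5-fold under each alternative run, and without any 1 array they were 7 for liver minus brain, 6 for liver minus lung, 4 to 5 for brain minus lung and 7 enriched. Without 1 array the mixture pairs gave 7 (25/70/5 minus 70/25/5), 5 to 6 (5/25/70 minus 70/25/5), 3 to 4 (70/25/5 minus 70/5/25) and 0 (60/35/5 minus 65/34/1), departures 1, and mixtures-only calls 8 to 9. Median centring gave 2 departures, and subtracting the 5th percentile also 2 (Slc2a5 and Slc2a4 in each). There were 0 after a curve through the hybridisation controls and 6 against log2 mixing. By arithmetic log2 mixing can only move a signed departure upward (Slc2a2 to 2.67). All 6 lay above, and Slc2a5 was not among them, at -0.40. With the 5th percentile subtracted 1 gene, Slc2a2 at -0.13, was called in 60/35/5 minus 65/34/1. The control curve moved the median of all probe sets for liver minus brain to -0.66 (0.18 as deposited, 0.42 after median centring) and for liver minus lung to -0.80 (0.12 and 0.37). Under it Slc2a3 and Hk2 passed 2-fold in liver minus lung (-1.45 and -1.12), Fbp1 in brain minus lung (-1.01, and -1.31 with the 5th percentile subtracted), and Slc2a5 was no longer called in 25/70/5 minus 70/25/5 (-0.17). Signs turned under the curve for Slc2a4 (liver minus brain -0.45, liver minus lung -0.60, 25/70/5 minus 70/25/5 0.38), Hk2 (25/70/5 minus 70/25/5 0.38), Slc2a3 (5/25/70 minus 70/25/5 0.11) and the Fbp1 departure (-0.12). It called Slc2a4 and Hk1 in 5/25/70 minus 70/25/5 (0.57 each), Hk2 lost that call after median centring (0.15), and Slc2a5 was called in 70/25/5 minus 70/5/25 after median centring and quantile normalization (-0.30 each). Signs turned after median centring for Hk2 (liver minus brain 0.17, liver minus lung 0.0729, 70/25/5 minus 70/5/25 -0.0367), the Fbp1 departure (-0.23) and Slc2a1 (5/25/70 minus 70/25/5 -0.0709, and -0.0665 after quantile normalization, where Pck1 in 70/25/5 minus 70/5/25 was 0.0051). By the second brightest probe set they turned in liver minus lung for Slc2a3 (0.40), Slc2a4 (-0.12) and Hk1 (0.47), in 25/70/5 minus 70/25/5 for Slc2a4 (0.0364), in 5/25/70 minus 70/25/5 for Hk1 (-0.26) and in the Hk1 departure (-0.0294). Leaving out 1 array turned signs near 0: Hk2 liver minus brain (-0.1336 to 0.0176) and 70/25/5 minus 70/5/25 (-0.011 to 0.0565), Slc2a2 brain minus lung (-0.0308 to 0.3615), Slc2a4 brain minus lung (-0.144 to 0.0225) and 25/70/5 minus 70/25/5 (-0.1564 to 0.0405), and Slc2a1 5/25/70 minus 70/25/5 (-0.0031 to 0.0394). The cause was not tested in any of these. No paired analysis was possible because the labels give no replicate numbers. The replicate numbers used in the text follow the order in which the arrays of each group are listed.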
